A study of Mus musculus with 4 samples.

Results

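The cytochrome P450 genes of the mouse were examined in injured kidneys that lacked tubular Apela and in injured control kidneys. Members were the protein-coding genes whose symbol starts with Cyp and a family number, without pseudogenes and without Cyp24a1, Cyp27b1 and Cyp51, and they were grouped by that number. There were 97 such genes of 15 families among 22058 protein-coding genes and 54078 features in all. The rule itself reads symbols and biotypes, not measured values, but the gene family was picked with earlier results of these data known.

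Total kidney RNA was sequenced from male adult mice at day 3 after both kidneys had been clamped for 30 min. Control pools (WT) came from Apela flox/flox mice without Cre, and knockout pools (KO) from littermates with the same floxed alleles and Cre driven by the Ksp-cadherin promoter, which is active in renal tubular epithelial cells, so the deletion was directed at those cells. Each of the 4 libraries, 2 WT and 2 KO, held RNA of 3 mice, and n = 2 therefore counts pools. The labels give the strain as C57BL/6 x 129S4/SvJae, whereas the study's methods describe a C57BL/6 background, and libraries of uninjured kidneys were not analysed here. Apela itself had an FPKM of 5.27 and 4.57 in WT and of 0.536 and 0.245 in KO pools, so the labels matched the targeted gene.

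Cytochrome P450 enzymes are heme proteins that insert oxygen into lipophilic substrates, with electrons passed on by P450 reductase (Por) in the endoplasmic reticulum or by ferredoxin in mitochondria. In the kidney most of them are found in proximal tubule cells, where they form vasoactive arachidonic acid products. Family 4 enzymes hydroxylate the end of the fatty acid chain and can yield 20-HETE, a constrictor of renal vessels, while epoxygenases of family 2 yield epoxyeicosatrienoic acids, which dilate them. Other members clear drugs, bile acid precursors and retinoic acid, or make steroid hormones in endocrine glands.

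Between 16045724 and 16927742 reads fell on genes per pool. The table gives FPKM, a fragment count scaled to gene length and to a total per pool, which makes levels only roughly comparable between genes and between pools. The total implied by the values was 1.72e+07 in WT replicate 2, above its reads on genes. In the other pools it was 1.61e+07 to 1.67e+07, below their reads on genes, so FPKM is scaled lower in WT replicate 2 than those reads alone would give. Summed over all features, FPKM was 327289 in WT replicate 2 and 368560 to 380641 in the other pools. The main fit did not rescale the pools for this. The labelled kidney was checked by its markers. Umod, a thick limb marker, had an FPKM of 788 or more in each pool, and so the sample held kidney tubule RNA. The series' design text names adipose tissue instead, so 5 adipocyte markers were read as well. Ucp1 was at 0 in every pool, Adipoq at most 0.268 and Plin1 at most 0.347, whereas Fabp4, which endothelial cells and macrophages also express, had 10.2 to 14.6. Cidec, a lipid droplet protein, had 1.37 and 0.282 in WT and 7.92 and 2.79 in KO pools (log2 fold change 2.12, SE 0.63), without overlap. Markers of adrenal cortex, the neighbouring gland, summed to an FPKM of 2.30 to 3.96 over 6 genes, with Nr5a1 at 0 in every pool. WT replicate 2 stood apart in its cell type markers. Its 6 macrophage markers summed to an FPKM of 244 against 96.5 to 116 in the other pools, and its 4 fibroblast markers to 182 against 90.6 to 122. Its 2 thick limb markers summed to 854 against 974 to 1282, and its 4 collecting duct markers to 199 against 268 to 351. The summed lists of proximal and distal tubule were lowest in KO replicate 1 instead, but the proximal genes were divided. Slc22a6, Slc4a4, Slc22a8 and Cubn of segments S1 and S2 were lowest in WT replicate 2. So were Acsm3, Slc5a8, Slc22a13 and Slc22a7 of segment S3. The other proximal markers were lowest in KO replicate 1, among them Slc34a1 and Atp11a, the highest genes of the lists of S1 and S2 and of S3. In whole-kidney RNA, fewer cells of a type and less RNA per cell cannot be told apart.

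Promoters are shown first for Cyp2a5 and Cyp2a4, because this pair of closely related genes of 1 cluster differed in the values described further on, and for Cyp2d26, the gene with the largest negative difference. Cyp2a5 and Cyp2a4 hydroxylate small ring compounds and steroids. The 250 bases before the RefSeq start are given 5′ to 3′ on the gene's strand from RefSeq (GRCm38.p6), at chr7:26835089-26835338 and chr7:26306942-26307191 on the plus strand and at chr15:82794246-82794495 on the minus strand. These RefSeq starts lie inside the gene bounds of the deposited table, so the printed stretches reach into the genes as that table draws them. Capitals mark the core letters GTTAAT of the site of HNF1, a factor of liver and kidney, read on either strand, so that they appear as their reverse complement in Cyp2d26.
Cyp2a5: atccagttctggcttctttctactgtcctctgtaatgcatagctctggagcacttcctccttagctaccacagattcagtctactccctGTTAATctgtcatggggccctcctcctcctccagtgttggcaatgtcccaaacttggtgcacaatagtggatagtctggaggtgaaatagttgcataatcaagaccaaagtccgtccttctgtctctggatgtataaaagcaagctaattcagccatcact
Cyp2a4: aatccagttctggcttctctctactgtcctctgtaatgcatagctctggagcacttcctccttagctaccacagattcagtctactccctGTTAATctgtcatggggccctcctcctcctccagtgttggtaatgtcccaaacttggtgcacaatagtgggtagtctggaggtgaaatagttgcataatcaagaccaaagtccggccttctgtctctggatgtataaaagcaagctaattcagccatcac
Cyp2d26: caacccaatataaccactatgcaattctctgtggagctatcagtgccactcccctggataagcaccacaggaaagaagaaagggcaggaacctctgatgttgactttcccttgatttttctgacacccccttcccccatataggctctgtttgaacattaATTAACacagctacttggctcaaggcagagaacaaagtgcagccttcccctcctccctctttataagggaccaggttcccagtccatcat
Aligned end to end, the promoters of Cyp2a5 and Cyp2a4 had 245 identical bases, 4 mismatches and 2 gap bases, an identity of 97.6%. Sequences were listed for 26 of the 39 tested members, with 27 promoters of 300 bases (250 before and 50 after the start). GTTAAT was found in 4 of these 27 promoters, those of Cyp2a4, Cyp2a5, Cyp2d26 and Cyp4a32, and in 7.10% of all 32851 promoters of that length. The AHR core GCGTG was in 10 of 27 (37.0%) against 32.4% of all, the nuclear receptor core AGGTCA in 4 (14.8%) against 16.3%, and the antioxidant response core TGACNNNGC in 2 (7.41%) against 12.4%. All 4 were searched on both strands, and a match is a description of letters only.

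Many P450 genes were not detected in these kidneys. Of the 97 members, 30 had no read in any pool and 17 more had at most 3 reads in every pool, which is taken here as the limit of detection. A further 11 were read more often but had a mean FPKM under 0.5, at most 0.425. The remaining 39 members, of 10 families, had a mean FPKM of at least 0.5 and were tested. Few of the Cyp2c and Cyp3a genes, which metabolize drugs in the liver, were read, with 1 of 15 Cyp2c genes (Cyp2c23) and 1 of 9 Cyp3a genes (Cyp3a13) tested, and 10 and 6 of them without a read. Cyp7a1, the rate-limiting enzyme of bile acid synthesis, and Cyp19a1, which makes estrogen, had no read. The adrenal steroid enzymes were at or near 0, since Cyp11a1, Cyp11b1 and Cyp11b2 together reached an FPKM of 0.0313 at most, while Cyp17a1 had 0.230 and 0 in WT and 0.662 and 0.256 in KO pools.

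The expressed genes were dominated by few members. The 6 highest, Cyp4a14, Cyp4b1, Cyp2e1, Cyp4a10, Cyp2j5 and Cyp4a31, held 83.0% of the summed FPKM of all members. Each had a mean FPKM above 100, followed by 16 members between 10 and 100, 13 between 1 and 10 and 4 under 1. The order among the leading 4 was not fixed, because the ranges over pools of Cyp4a14, Cyp4b1, Cyp2e1 and Cyp4a10 overlapped. Cyp4a14 was the highest of the 97 genes in WT replicate 1 and in KO replicate 1, but was behind Cyp4b1, Cyp2e1, Cyp4a10 and Cyp2j5 in WT replicate 2. Cyp2e1, which oxidizes ethanol and ketones, had an FPKM of 611 and 307 in WT and 398 and 386 in KO pools.

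**Figure D1:**
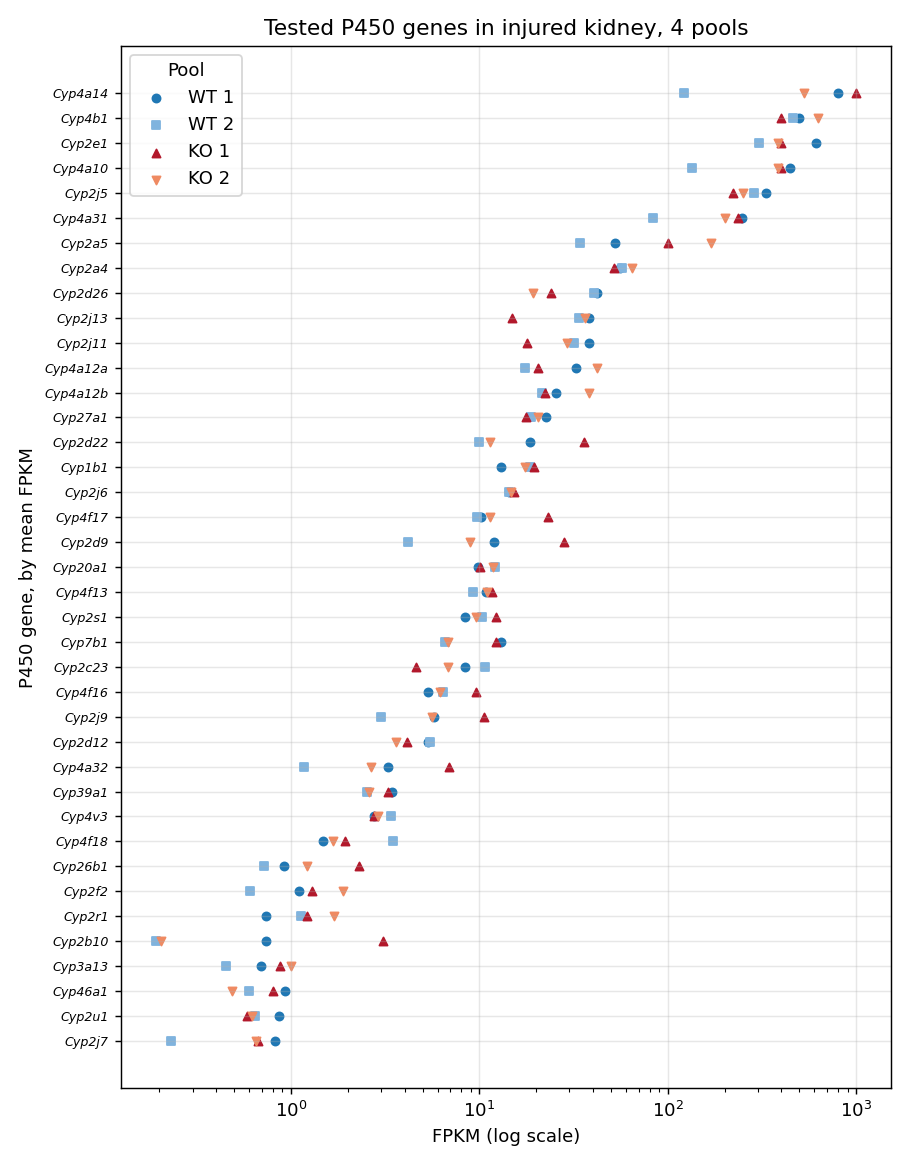
FPKM on a log axis of the 39 tested P450 genes, ordered by mean, with one marker for each of the 2 WT (blue) and 2 KO (red) pools. The Cyp4a genes are lowest in WT replicate 2, and Cyp2a5 and Cyp2d26 show separated WT and KO pools.

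Values were compared as log2(FPKM + 0.5) between KO and WT pools with limma, which was fitted to all 15414 genes that passed this filter. No P450 gene had an adjusted p-value under 0.05 (0 of 39, where 0 of the 15414 genes did, 0%), and the smallest among them was 0.545 (limma, Benjamini-Hochberg). With unadjusted p-values under 0.05 there was 1 member higher in the KO pools (2.56%), Cyp2a5, where 3.29% of all genes were, and 3 members lower (7.69%), Cyp2d26, Cyp2d12 and Cyp2c23, where 3.03% were. Both KO pools lay above both WT pools for 8 members (20.5%, against 19.7% of all genes) and below them for 6 (15.4%, against 18.1%). In this fit the shares without overlap and the share higher at an unadjusted p under 0.05 are near those of all genes, while the share lower at that p rests on 3 genes. With the replicate number added to the fit as a block, 5 members (12.8%) were higher at that p, against 3.53% of all genes. With 2 pools on each side, the smallest two-sided p of an exact permutation test is 0.333, and each gene is therefore given with its value in every pool.

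In direction, 24 of the 39 members (61.5%) were higher in the KO pools against 51.4% of all genes, and the median log2 fold change was 0.21 against 0.0071. This median was 0.054 without WT replicate 2 and 0.10 without KO replicate 1, and 0.033 with all 4 pools and no filter on low values. P450 genes varied more between pools of the same genotype than other genes. The median absolute difference on the log2(FPKM + 0.5) scale was 0.35 within each genotype, against 0.20 and 0.17 over all genes tested. On this scale 6 members (15.4%) in each genotype differed by more than 2-fold between the pools (8 in WT and 7 in KO by FPKM itself), where 4.18% (WT) and 3.60% (KO) of all genes did. WT replicate 2 was the lowest pool for 20 members (51.3%), against 30.7% of all genes, while KO replicate 2 was the lowest for 3. The members made up 0.547% of all FPKM in WT replicate 2 and 0.774% to 0.913% in the other pools.

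The omega-hydroxylases of the Cyp4a subfamily differed widely between the WT pools. Summed over Cyp4a10, Cyp4a14 and Cyp4a31, the FPKM was 1494 and 340 in WT and 1626 and 1115 in KO pools, so that WT replicate 2 alone was low and the genotypes overlapped. Without these 3 genes the other members summed to 1906 and 1450 in WT and to 1514 and 1831 in KO pools. Cyp4a14, a gene strongly induced by PPARα ligands, had an FPKM of 800 and 122 in WT and 992 and 528 in KO pools, a log2 fold change of 1.21 (SE 0.96). The WT pools differed by 6.56-fold, whereas the ratio of the KO mean to the WT mean was 1.65, and the log2 fold change was -0.14 without WT replicate 2.

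**Figure D2:**
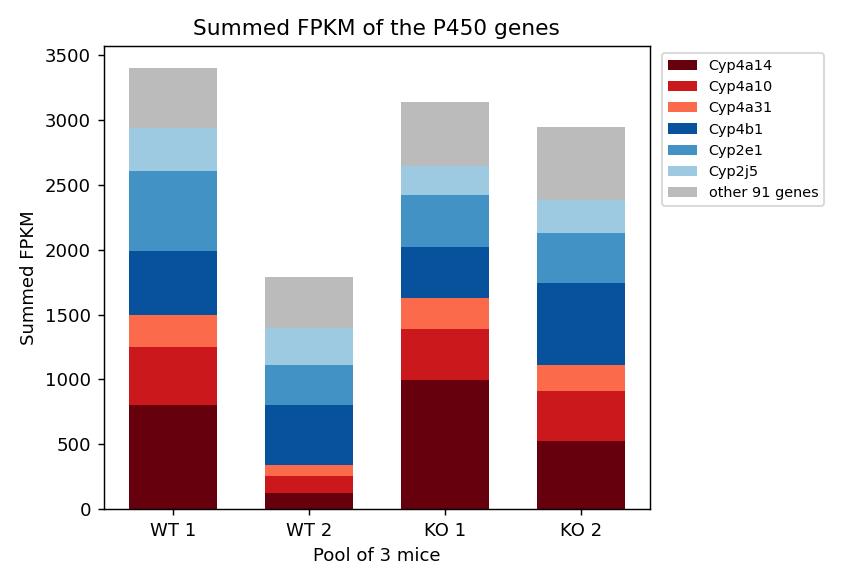
Summed FPKM of the 97 P450 genes in each pool of 3 mice, stacked for the 6 highest genes and the other 91. The total is 1790 in WT replicate 2 and 2946 to 3399 in the other pools, and the red Cyp4a segments make up most of that gap.

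Cyp4a10 followed the same pattern, with an FPKM of 446 and 135 in WT and 397 and 386 in KO pools. Cyp4a31 had 247 and 83.8 in WT and 237 and 200 in KO pools. Both hydroxylate medium- and long-chain fatty acids, and for both WT replicate 1 was the highest of the 4 pools and WT replicate 2 the lowest. Ppara, the nuclear receptor that induces Cyp4a genes, had an FPKM of 19.04 and 14.8 in WT and 31.9 and 29.1 in KO pools, a log2 fold change of 0.84 (SE 0.16, adjusted p = 0.650, limma with Benjamini-Hochberg adjustment). Its 2 KO pools were above both WT pools. WT replicate 2 also had the higher macrophage and fibroblast markers and the lower thick limb and collecting duct markers. Proximal tubule markers were lowest in that pool or in KO replicate 1, depending on the gene. The part of these markers, or of Ppara, in the Cyp4a values was not tested.

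Cyp4a12a and Cyp4a12b, the male-typical arachidonic acid omega-hydroxylases that form 20-HETE in mouse kidney, did not show the drop in WT replicate 2 to the same extent. Cyp4a12a had an FPKM of 32.6 and 17.5 in WT and 20.5 and 42.3 in KO pools. Cyp4a12b had 25.5 and 21.5 in WT and 22.2 and 38.2 in KO pools. For both genes KO replicate 2 was the highest pool and KO replicate 1 lay within the WT range. They share 48.9% and 49.4% of the windows of 50 bases in their longest coding transcripts, so the division of reads between them is uncertain. All 6 tested Cyp4a genes had positive log2 fold changes, from 0.30 to 1.21, where 51.4% of all genes had. Of the 6, 0 were higher without overlap, against 19.7% of all genes. The log2 fold changes of Cyp4a10, Cyp4a12a, Cyp4a14 and Cyp4a31 were negative without WT replicate 2. Those of Cyp4a12a and Cyp4a12b were negative without KO replicate 2. They lie within 1 cluster of 10 members on chromosome 4 from 115106323 to 115647723, and the genes share reads to differing degrees, with 30.5% of the windows of Cyp4a10, 21.8% of Cyp4a31 and 46.8% of the low Cyp4a32 also found in another gene.

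Of the other family 4 genes, Cyp4b1, a proximal tubule enzyme that acts on short-chain fatty acids and xenobiotics, had an FPKM of 499 and 463 in WT and 398 and 628 in KO pools. The WT pools lay between the KO pools. Cyp4f17, an enzyme of the fatty acid hydroxylase group, had 10.1 and 9.68 in WT and 23.1 and 11.4 in KO pools, a log2 fold change of 0.68 (SE 0.34). Its KO pools were both above the WT pools, but KO replicate 1 gave most of the difference, which was 0.19 without it. Cyp4f13 had 10.8 and 9.20 in WT and 11.7 and 11.004 in KO pools, a log2 fold change of 0.18 (SE 0.13). Omitting WT replicate 2 gave 0.071, and omitting WT replicate 1 gave 0.29. Cyp4v3, a fatty acid hydroxylase of broad expression, ranged from 2.76 to 3.37. Cyp4f18, which inactivates leukotriene B4 in leukocytes, had its highest value, 3.48, in WT replicate 2, and 1.48 to 1.93 in the others. It had 44 to 111 reads a pool. WT replicate 2 also had the highest macrophage markers, and their part in the Cyp4f18 values was not tested.

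**Figure D3:**
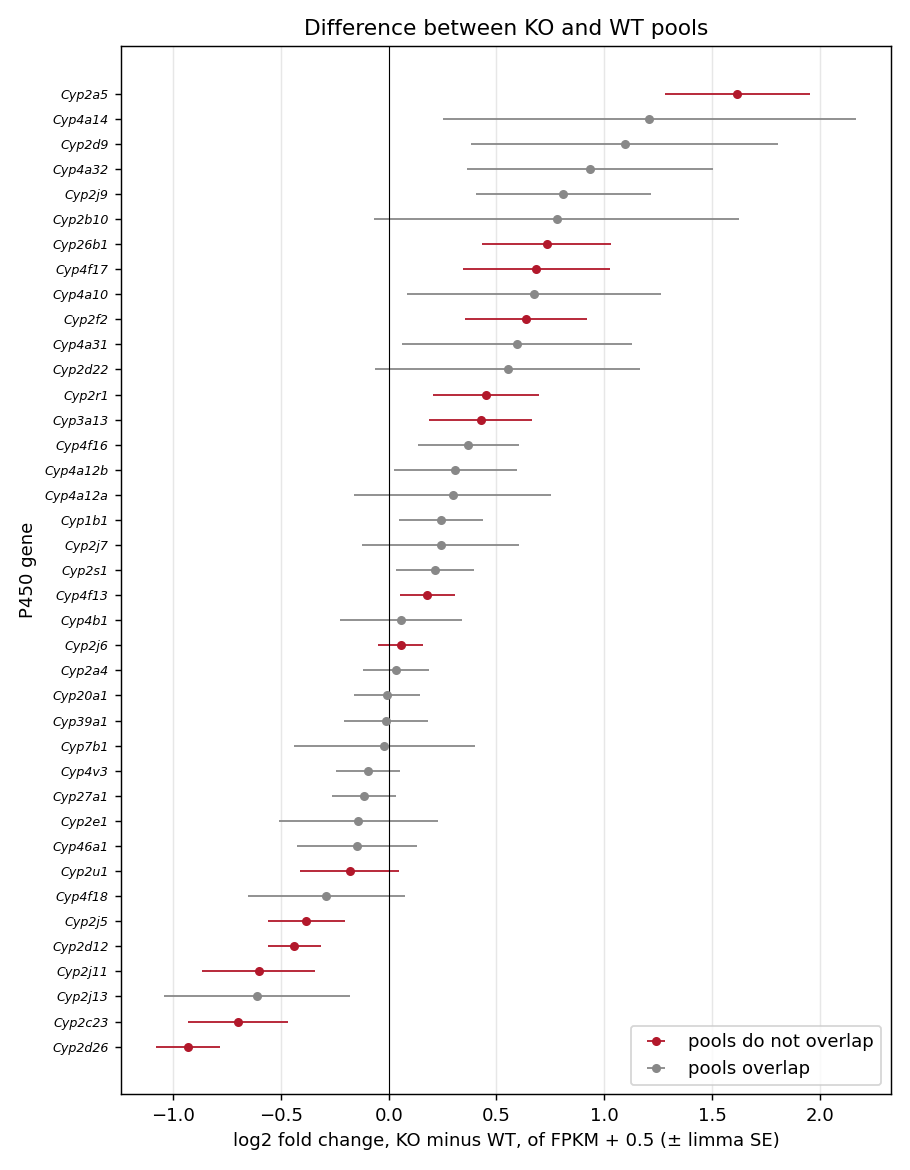
Log2 fold change (KO minus WT) of FPKM + 0.5 for each tested P450 gene, with bars of 1 limma standard error from 2 pools a genotype; red marks the 14 genes whose pools do not overlap. Cyp2a5 is at 1.62 and Cyp2d26 at -0.93, and wide bars mark genes such as Cyp4a14 (1.21, SE 0.96).

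Family 2, the largest with 49 members and 19 tested, held the members with the lowest p-values. Cyp2a5 (ENSMUSG00000005547), known for coumarin hydroxylation and for induction during tissue injury, lies on chromosome 7 of GRCm38 from 26835305 to 26843548. WT pools had an FPKM of 52.1 and 34.2, and KO pools had 101 and 170. The KO pools were both higher, at 135 ± 48.8 (SD, n = 2) against 43.2 ± 12.7 (SD, n = 2), a ratio of means of 3.13. The log2 fold change was 1.62 (SE 0.34), with an adjusted p of 0.677 by limma and the Benjamini-Hochberg method. Omitting single pools gave 1.24 to 1.99. Of 6 markers of injured tubule, 3 were higher in both KO pools and 1 lower in both (19.7% and 18.1% of all genes were), and none had an adjusted p under 0.05. Among them Lcn2 had 133 and 95.2 in WT and 249 and 273 in KO pools. Vcam1 was the one lower in both, with 14.6 and 31.0 in WT and 10.5 and 2.59 in KO pools (log2 fold change -1.91, SE 0.70). Havcr1 overlapped, with 210 and 393 in WT and 249 and 105 in KO pools. The median log2 fold change of the 6 markers was -0.036. Their part in the Cyp2a5 difference was not tested.

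Cyp2a4 (ENSMUSG00000074254), a steroid 15α-hydroxylase in the same cluster at 26307169 to 26315088, had the near-identical promoter shown above but no such difference. Its FPKM was 55.6 and 57.3 in WT and 51.8 and 64.3 in KO pools, so the genotypes overlapped, with a log2 fold change of 0.033 (SE 0.15). The ratio of Cyp2a5 to Cyp2a4 was 0.937 and 0.597 in WT and 1.94 and 2.64 in KO pools. Of the windows of 50 bases, 40.8% of Cyp2a5 and 38.0% of Cyp2a4 were also found in another gene, mostly in each other, so part of their reads could be assigned to either. The 5 tested genes of this cluster on chromosome 7, which spans 25802475 to 27158668, all had positive log2 fold changes, where 51.4% of all genes had. That of Cyp2a4 was -0.068 after quantile normalization and -0.12 without KO replicate 2, and that of Cyp2b10 was -0.39 without KO replicate 1.

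Cyp2f2, a lung enzyme that activates naphthalene, was one of these 5 genes, with an FPKM of 1.11 and 0.603 in WT and 1.30 and 1.89 in KO pools (log2 fold change 0.64, SE 0.28, and 0.37 without WT replicate 2). Both KO pools were higher, at 21 to 62 reads a pool. Cyp2s1, an epithelial enzyme, had 8.33 and 10.3 in WT and 12.3 and 9.53 in KO pools and overlapped. Cyp2b10, the classical target of the receptor CAR, had 0.737 and 0.193 in WT and 3.09 and 0.204 in KO pools. Its KO replicate 1 had 109 reads and its KO replicate 2 had 7, so this pool alone was high. Nr1i3, which encodes CAR, had an FPKM of at most 0.0846.

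The Cyp2d genes, relatives of the human drug-metabolizing CYP2D6, went in both directions. Cyp2d26 (ENSMUSG00000022445), at 82790101 to 82794294 on chromosome 15, had an FPKM of 42.3 and 40.6 in WT and 24.0 and 19.3 in KO pools. Both KO pools were lower, and the WT pools differed by only 1.04-fold. The KO mean was 21.6 ± 3.30 (SD, n = 2) against 41.5 ± 1.16 (SD, n = 2), a log2 fold change of -0.93 (SE 0.15, adjusted p = 0.545, limma with Benjamini-Hochberg adjustment). Omitting single pools gave -1.08 to -0.78.

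Cyp2d12 was lower in the same pools, with an FPKM of 5.34 and 5.47 in WT and 4.11 and 3.62 in KO, a log2 fold change of -0.44 (SE 0.12). Cyp2d22 and Cyp2d9, in contrast, were highest in KO replicate 1. Cyp2d22 had 18.7 and 9.93 in WT and 35.9 and 11.3 in KO pools. Cyp2d9, a male-specific steroid 16α-hydroxylase in liver, had 12.0 and 4.20 in WT and 28.1 and 8.87 in KO pools. For both, KO replicate 2 lay between the WT pools. These 4 genes share one cluster on chromosome 15 from 82370527 to 82794294, where 29.0% of the windows of Cyp2d9 and 17.9% of those of Cyp2d12 were also found in another gene.

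**Figure D4:**
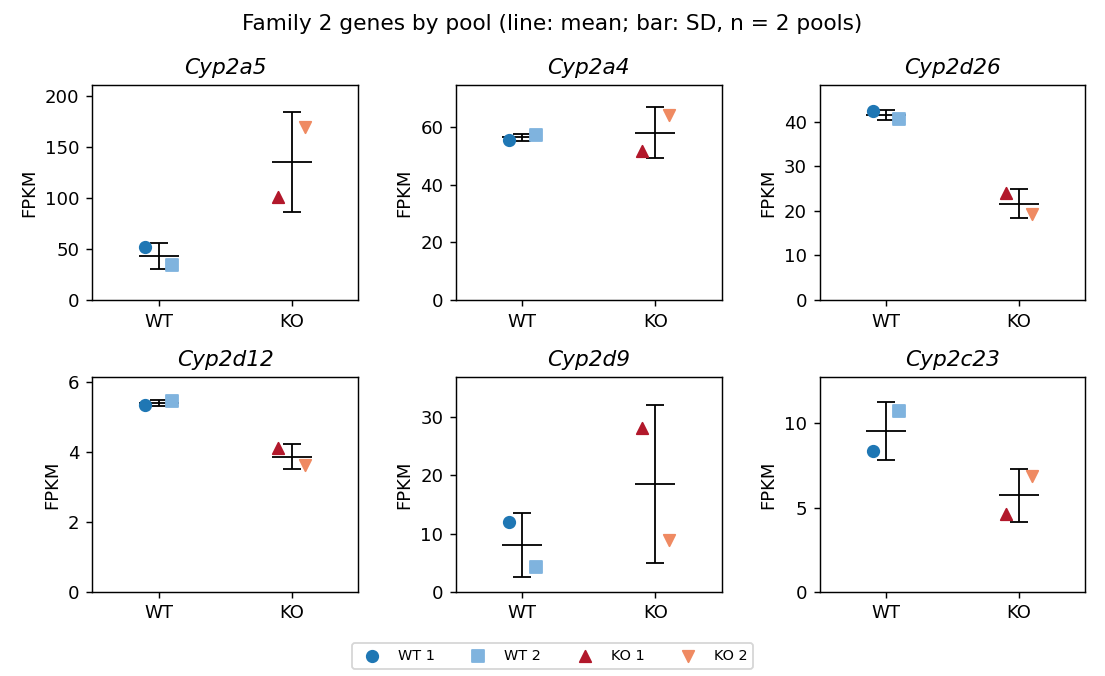
FPKM of 6 genes of family 2 in each pool, with the mean and SD of 2 pools a genotype; all axes start at 0. Cyp2a5 is higher and Cyp2d26, Cyp2d12 and Cyp2c23 lower in both KO pools, whereas the pools overlap for Cyp2a4 and Cyp2d9.

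The subfamilies 2c and 2j, which hold arachidonic acid epoxygenases, had 7 tested genes. Of these, 4 were lower, 3 without overlap (18.1% of all genes), and 3 were higher, 1 without overlap (19.7% of all genes). Cyp2c23, known from rodent kidney as its main epoxygenase, had an FPKM of 8.33 and 10.7 in WT and 4.63 and 6.85 in KO pools. Both KO pools were lower, with 167 and 240 reads against 289 and 399, and the log2 fold change was -0.70 (SE 0.23, adjusted p = 0.785, limma with Benjamini-Hochberg adjustment). Cyp2j5, an abundant proximal tubule epoxygenase, had 334 and 287 in WT and 223 and 252 in KO pools (log2 fold change -0.38, SE 0.18). Cyp2j11 had 38.2 and 31.9 in WT and 17.9 and 29.1 in KO pools (-0.60, SE 0.26), and omission of KO replicate 1 or 2 gave -0.26 or -0.95. For Cyp2c23, the log2 fold change without KO replicate 1 was -0.44. In Cyp2j5 and Cyp2j11 the KO pools lay below the WT pools, with KO replicate 1 the lowest.

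The other Cyp2j genes differed from them. Cyp2j13 had an FPKM of 38.3 and 33.6 in WT but 14.9 and 36.3 in KO pools, so only KO replicate 1 was low. Cyp2j6 was nearly constant, from 14.4 to 15.3, which still left the pools without overlap. Cyp2j9 was in the opposite direction, with 5.76 and 3.01 in WT and 10.5 and 5.63 in KO pools, and its pools overlapped. Of the 6 tested Cyp2j genes, which lie in 1 cluster on chromosome 4 from 96027534 to 96664154, 3 were higher and 3 lower.

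Proximal tubule markers went in both directions. Of the 8 markers of segments S1 and S2, 5 were lower in the KO pools, 4 of them without overlap (18.1% of all genes), and 3 were higher, 1 without overlap (19.7% of all genes). Their median log2 fold change was -0.24, and none had an adjusted p under 0.05. At an unadjusted p under 0.05 by limma, 2 were lower, Slc5a2 and Lrp2, and 0 higher, where 3.03% and 3.29% of all genes were. Slc34a1, a phosphate carrier, had an FPKM of 898 and 689 in WT and 365 and 609 in KO pools, and like Cyp2j5 and Cyp2c23 it was lowest in KO replicate 1. The organic anion carrier Slc22a6 went the other way, with 233 and 141 in WT and 236 and 383 in KO pools. Of the 7 markers of segment S3, 5 were lower, 1 without overlap (18.1% of all genes), and 2 were higher, 0 without overlap (19.7% of all genes). The summed FPKM of the S1 and S2 list, in which Slc34a1 was the highest gene, was 1634 and 1213 in WT and 979 and 1389 in KO pools. Its part in the P450 differences was not tested.

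Of the 3 listed enzymes that hydrolyse epoxyeicosatrienoic acids and other epoxides, 2 were tested. Ephx2, the soluble epoxide hydrolase, had an FPKM of 131 and 70.0 in WT and 182 and 186 in KO pools, a log2 fold change of 0.94 (SE 0.32) that was 0.50 without WT replicate 2. Ephx1, the microsomal form, had 33.2 and 34.5 in WT and 66.8 and 51.0 in KO pools, 0.78 (SE 0.17). Both were higher without overlap (19.7% of all genes) and at an unadjusted p under 0.05 (3.29% of all genes), with unadjusted p-values of 0.0359 and 0.00701 and adjusted ones of 0.785 and 0.690 (limma, Benjamini-Hochberg). Ephx3 was under the filter, with 0.348 and 0.139 in WT and 0.143 and 0.148 in KO pools.

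Among the electron donors and partners, 6 of 8 were higher, 3 of them without overlap (19.7% of all genes), and 1 was higher at an unadjusted p-value under 0.05 (3.29% of all genes). Cyb5r1 was lower without overlap, with 6.998 and 8.37 in WT and 6.84 and 6.52 in KO pools. Por, which serves all microsomal P450 enzymes, had an FPKM of 97.3 and 72.4 in WT and 102 and 126 in KO pools, a log2 fold change of 0.43 (SE 0.21) that was 0.22 without WT replicate 2 and 0.28 without KO replicate 2. Cyb5r3, the reductase of cytochrome b5, had 71.2 and 64.4 in WT and 86.4 and 93.8 in KO pools, 0.41 (SE 0.13). Of the 8 heme synthesis genes, 6 were higher and 4 of those without overlap (19.7% of all genes), among them Alas1, the rate-limiting enzyme, with 75.0 and 51.2 in WT and 91.5 and 77.8 in KO pools. Uros was lower, with 4.80 and 5.09 in WT and 3.03 and 3.10 in KO pools. None of these genes had an adjusted p-value under 0.05.

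Of the 14 tested receptors that regulate P450 genes, 9 were higher, 3 of them without overlap (19.7% of all genes), and 5 lower, 2 without overlap (18.1% of all genes). Ppara was the one with an unadjusted p-value under 0.05 (3.29% of all genes were higher at that p). Hnf4a, which maintains P450 expression in proximal tubule, was between 136 and 154. Nr1i2, which encodes the xenobiotic receptor PXR, had an FPKM of 3.92 and 3.69 in WT and 6.86 and 4.17 in KO pools. Ahr, the aryl hydrocarbon receptor, ranged from 1.53 to 2.07. Its target Cyp1b1 had 13.1 and 18.5 in WT and 19.5 and 17.5 in KO pools, and its pools overlapped. Cyp1a1, the most inducible AHR target, had at most 0.402 FPKM, and Cyp1a2 had no read. Tiparp, another AHR target, ranged from 5.84 to 8.07 with overlap, whereas Nqo1, a target shared with NRF2, had 57.9 and 26.1 in WT and 137 and 158 in KO pools.

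Of the sterol and vitamin D enzymes, Cyp27a1, Cyp7b1, Cyp39a1 and Cyp46a1 overlapped between genotypes and Cyp2r1 did not. Cyp27a1, the mitochondrial sterol 27-hydroxylase, had an FPKM of 22.5 and 18.8 in WT and 17.7 and 20.4 in KO pools. Cyp7b1, an oxysterol 7α-hydroxylase, was 13.1 and 6.57 in WT and 12.3 and 6.80 in KO pools, so that replicate 1 was higher than replicate 2 in each genotype. Cyp39a1 ranged from 2.53 to 3.42 and Cyp46a1, the brain cholesterol 24-hydroxylase, from 0.487 to 0.928. Cyp2r1, a vitamin D 25-hydroxylase, had 0.735 and 1.13 in WT and 1.22 and 1.69 in KO pools, a log2 fold change of 0.45 (SE 0.25) on 25 to 58 reads, with both KO pools higher, and of 0.25 without WT replicate 1 or 0.27 without KO replicate 2. Cyp20a1, an enzyme without an assigned substrate, was between 9.88 and 12.0. Cyp2u1, a fatty acid hydroxylase, had 0.866 and 0.643 in WT and 0.582 and 0.623 in KO pools, with both KO pools lower. Its log2 fold change was -0.18 (SE 0.23) on 51 to 73 reads, and -0.053 without WT replicate 1.

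Of the retinoic acid-clearing family 26, Cyp26b1 was tested. Its FPKM was 0.918 and 0.717 in WT and 2.29 and 1.21 in KO pools, on 79 and 66 against 205 and 105 reads. Both KO pools were higher, with a log2 fold change of 0.73 (SE 0.30, adjusted p = 0.786, limma with Benjamini-Hochberg adjustment). Omitting KO replicate 1 gave 0.38, and omitting KO replicate 2 gave 1.09. Cyp26a1 and Cyp26c1 stayed at 0.211 or below. Cyp3a13, the extrahepatic Cyp3a gene, had 0.695 and 0.452 in WT and 0.870 and 1.00 in KO pools, 0.43 (SE 0.24), with both KO pools higher, and 0.26 without WT replicate 2. The retinoic acid receptors Rara, Rarb and Rarg had log2 fold changes between -0.15 and 0.072.

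**Figure D5:**
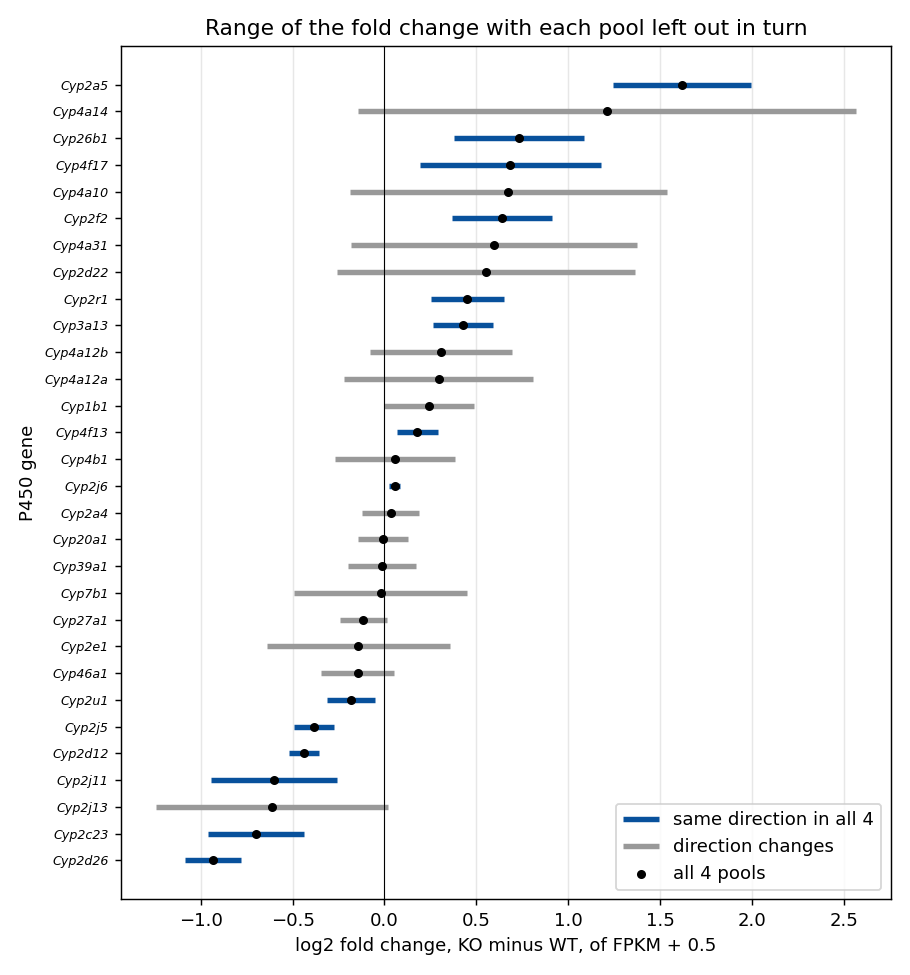
Log2 fold change (KO minus WT) of FPKM + 0.5 for 30 named P450 genes, with all 4 pools (points) and the range over the 4 fits that each leave out 1 pool (lines). For 14 genes (blue), among them Cyp2a5, Cyp26b1, Cyp2j5, Cyp2c23 and Cyp2d26, the range stays on one side of 0, and for 16 (grey) it does not.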

How the data were processed

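The authors deposited FPKM values per gene for each pool, in 1 table with gene positions, lengths and biotypes, from poly-A libraries. The submitters' processing notes name HISAT2 2.0.5, mm10 and GRCm38.p6, and the counting tool is not given in the sources used here. Of the 97 members, 86 had the coordinates of GENCODE M21, and Cyp4f17 and Cyp1b1 were among those that differed. FPKM times length gave whole multiples of 1 read for 100% of nonzero values within 0.01 of a read. These reads served for depth, detection (over 3 reads) and voom weights. Replicate pools differed beyond sampling noise (chi-square per gene 31.5 in WT and 24.5 in KO). Read limits cover counting error only.

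Genes whose mean FPKM over the pools reached 0.5 were fitted on the log2(FPKM + 0.5) scale, which understates changes of low genes, by limma 3.58.1 under R 4.3.3 (trend, no covariates, two-sided, Benjamini-Hochberg over 15414 genes, threshold 0.05). The fit was tried on simulated reads, and no result of that trial is given here. The p-values measure only the spread between these pools, as no label ties pools to litters or days. The P450 genes, the lists and the tests were chosen with earlier results of these data known. The rule named the 15 highest tested members, those with an unadjusted p under 0.05, up to 8 in each direction without overlap and the highest of each family. Other genes in the text were added after their values were seen. The alternatives were other pseudocounts (0.1 and 1), filters (none, or mean FPKM from 1), quantile normalization, no trend, a replicate block, voom weights, protein-coding genes only and omission of each pool. Shared windows of 50 bases were counted over GENCODE M21 transcripts.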

Additional observations from a re-analysis of the deposited data

How the results depend on the processing

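Under every alternative that kept all 4 pools, 0 of the P450 genes had an adjusted p-value under 0.05 (limma, Benjamini-Hochberg). The same held for all genes tested, of which 0 passed. The adjusted p-values of the 30 named genes in these fits ranged from 0.449 to 0.9998 (limma, Benjamini-Hochberg). The count of members higher at an unadjusted p under 0.05, 1 as reported, was 2 with no filter, quantile normalization, voom weights or protein-coding genes only (2.73% to 3.30% of all genes), and 5 of 39 (12.8%) with the replicate block, against 3.53% of all genes. Those 5 were Cyp2a5, Cyp26b1, Cyp2d9, Cyp2j9 and Cyp4a32. The count lower was 5 instead of 3 with quantile normalization (12.8%, against 3.19% of all genes), with Cyp2j5 and Cyp2j11 added, and 4 with voom weights (10.3%, against 3.00%), with Cyp2j11 added. With no filter, where 67 members had a value, 14 were lower without overlap (20.9%, against 16.4% of all genes) and the median log2 fold change was 0.033. With each pool left out, 1 genotype had a lone pool, so counts at a p-value are not given for these fits. Members without overlap then ranged from 12 to 22 higher (30.8% to 56.4%) and from 7 to 15 lower (17.9% to 38.5%). Fewer pools overlap less by construction, and 34.3% to 37.7% and 32.0% to 35.9% of all genes did so. The median log2 fold change ranged from 0.054 to 0.25.

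Quantile normalization reversed Cyp4b1 (-0.0079), Cyp2a4 (-0.068) and Cyp39a1 (0.015), and the cause was not tested. With single pools left out, 16 of 30 named genes changed direction. These were Cyp4a14 (-0.14 to 2.56), Cyp4b1 (-0.27 to 0.38), Cyp2e1 (-0.64 to 0.35), Cyp4a10 (-0.19 to 1.54), Cyp4a31 (-0.18 to 1.37), Cyp2a4 (-0.12 to 0.19), Cyp2j13 (-1.24 to 0.019), Cyp4a12a (-0.22 to 0.81), Cyp4a12b (-0.077 to 0.70), Cyp27a1 (-0.24 to 0.012), Cyp2d22 (-0.26 to 1.36), Cyp1b1 (-0.0014 to 0.49), Cyp20a1 (-0.14 to 0.13), Cyp7b1 (-0.49 to 0.45), Cyp39a1 (-0.20 to 0.17) and Cyp46a1 (-0.35 to 0.052). No label says what a replicate number shares. Deviations of same-numbered pools had a correlation of -0.0017 across all genes, which does not pair them, but of 0.35 across the 39 P450 genes, and whether the pools are paired was not settled. The replicate block changed no adjusted call. Cyp2f2, Cyp2r1, Cyp2u1, Cyp3a13 and Cyp46a1 had under 100 reads in each pool, and the part of counting error in their spread was not tested.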
